A study of Mus musculus with 8 samples.

Results

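The genes described here encode the contractile, structural, calcium-handling and metabolic proteins of skeletal muscle. There were 41 of them, and all 41 were found among the 21895 genes of the deposited table. By textbook knowledge 13 belong to fast fibres, 8 belong to slow fibres and 20 are shared by both. They were chosen by gene symbol after the levels of muscle genes in these same WT and KO libraries had been seen, so their contrast between genotypes is a description and supports nothing by itself.

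The levels come from cochlear RNA of miR-29a WT mice (WT libraries 1 to 4) and of KO mice (KO libraries 1 to 4), written here as WT1 to KO4. The KO mice lacked both copies of miR-29a, a small RNA whose own level was not analysed here, and both genotypes were on the C57BL/6 background. The series record gives an age of 21 days, the methods of the study give an older age, and the mice of both sexes that the study used are not assigned to libraries. The labels do not say that each library came from a separate animal, so a p-value here measures only the spread between libraries, which may be partly technical.

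Skeletal muscle shortens when myosin motors of the thick filament pull on actin of the thin filament, which the troponin complex opens when calcium is released from the sarcoplasmic reticulum. Fast and slow fibres build this machine from different isoforms of the same parts. Fast fibres use the myosin heavy chains of Myh1, Myh2 and Myh4 and the calcium pump of Atp2a1, and slow fibres use the myosin heavy chain of Myh7. The cochlea has no skeletal muscle fibres of its own, and the closest ones, the stapedius and the tensor tympani, lie in the middle ear.

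The unit is FPKM, fragments mapped to a transcript, scaled by its length and by the fragments mapped in the library, so that levels can be compared between genes. From the spacing of low values the depth was estimated at 21.5 M to 26.4 M fragments per library, at which 1 fragment on a transcript of 1 kilobase corresponds to 0.0379 to 0.0465 FPKM. All 15 marker genes of cochlear cells were present in all libraries, as the labelled tissue requires, with a summed level of 1660 to 2570 FPKM in WT and 1770 to 2230 FPKM in KO. The highest of them was Coch, which encodes the cochlin of the spiral ligament, at 1230 to 1930 FPKM. Libraries differed widely in RNA of other cells: genes of the neutrophil lineage summed to 9390 FPKM in WT1 but 51.3 FPKM in WT3, and pituitary hormone genes summed to 1700 FPKM in WT4 but 1.75 FPKM in WT1. In bulk tissue fewer cells of a type and less RNA per cell cannot be told apart.

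As a sum, the skeletal muscle genes were highest in KO3 and next highest in KO4. Their summed level was 37.9, 59.8, 57.5 and 85.9 FPKM in WT1 to WT4 and 55.8, 58.2, 695 and 154 FPKM in KO1 to KO4. KO1 and KO2 thus lay within the range of the WT libraries, KO4 lay above it, and KO3 lay far above all others. The group means were 60.3 ± 19.7 FPKM in WT and 241 ± 306 FPKM in KO (SD, n = 4 each), a log2 ratio of 2.0. Without KO3 the KO mean was 89.3 ± 55.9 FPKM (SD, n = 3) and the log2 ratio was 0.57. As a share of all FPKM of a library, the muscle genes made up 0.015% to 0.0342% in WT, 0.0219% in KO1, 0.0212% in KO2, 0.241% in KO3 and 0.0617% in KO4.

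This pattern belonged to the fast and shared genes and not to the slow ones. The 13 fast-fibre genes summed to 4.08, 4.06, 2.61 and 16.4 FPKM in WT1 to WT4 and to 6.67, 5.45, 341 and 54.2 FPKM in KO1 to KO4. The 20 shared genes summed to 23.9, 42.1, 36.9 and 55.8 FPKM in WT and to 39.5, 39.9, 336 and 83.6 FPKM in KO. The 8 slow-fibre genes summed to 9.94, 13.7, 18.0 and 13.7 FPKM in WT and to 9.69, 12.9, 17.8 and 15.9 FPKM in KO. The slow sum in KO3 was thus within the WT range, whereas the fast sum in KO3 was above that of every other library. Most of the slow sum was Mybpc1, at 14.8 FPKM in KO3 and 15.0 FPKM in WT3, so it says little about the other slow genes. The highest value of a gene fell in KO3 for 13 of 13 fast genes, 18 of 20 shared genes and 0 of 8 slow genes. KO3 also had the largest total over all genes, 288695 FPKM, against 249221 to 274417 FPKM in the other libraries. The share of all genes that were highest in KO3 was not counted. Counts of genes highest in KO3, here and below, therefore lack a background and are descriptions only. KO4 was second for 12 of the 13 fast genes, and WT4 was the highest WT library for 12 of the 13.

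**Figure D1:**
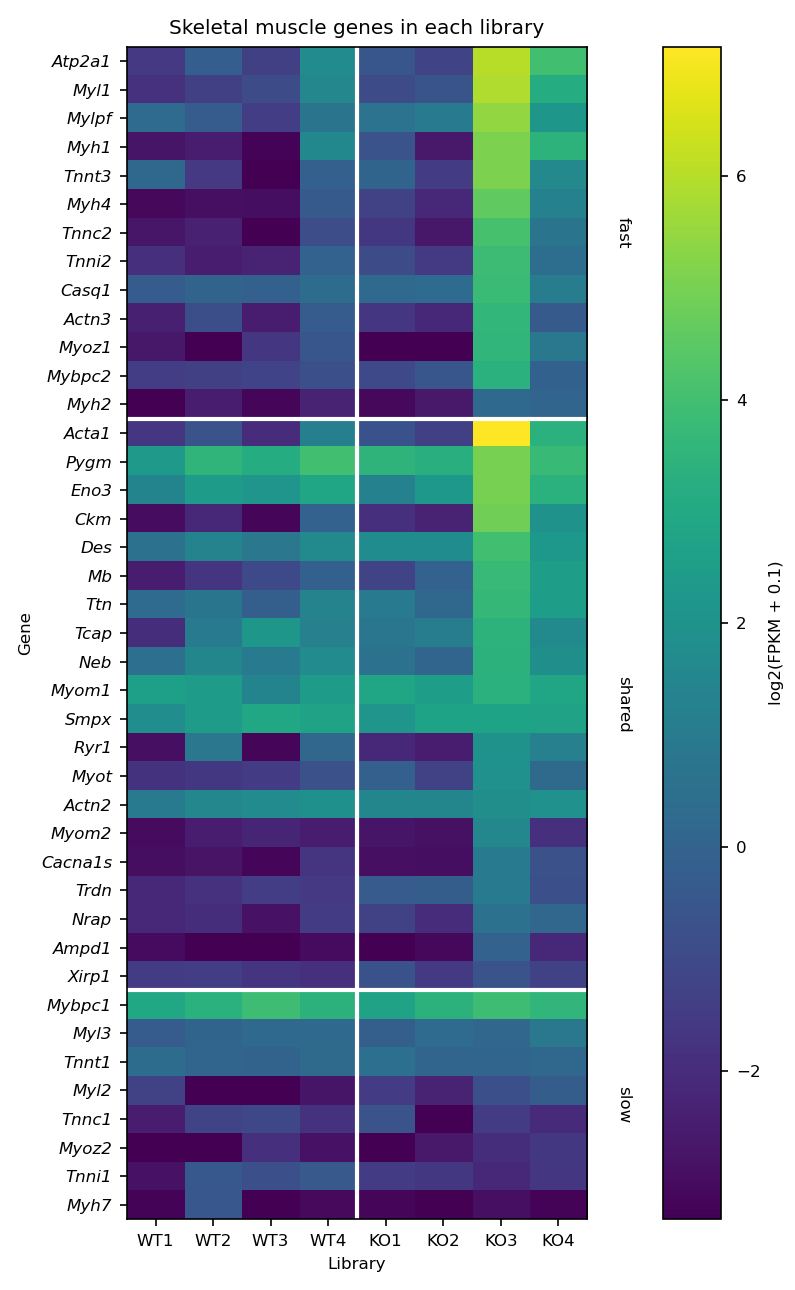
Heat map of log2(FPKM + 0.1) for the 41 skeletal muscle genes (rows, in fast, shared and slow blocks divided by white lines) in the 8 libraries (columns, with WT to the left of the white line). The fast block is brightest in KO3 and next in KO4, where the fast genes summed to 341 and 54.2 FPKM, and the slow block has no bright column.

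Myosin heavy chains form the motor of the thick filament. The fast ones lie in a row on the plus strand of chromosome 11 (GRCm38), Myh2 (ENSMUSG00000033196) at chr11:67171027-67197517, Myh1 (ENSMUSG00000056328) at chr11:67200052-67224575 and Myh4 (ENSMUSG00000057003) at chr11:67238029-67260446, whereas Myh7 (ENSMUSG00000053093) lies at chr14:54970684-54994626 on the minus strand. Myh1, which encodes the heavy chain of type 2X fibres, was at 0.0525, 0.0766, 0.00722 and 2.86 FPKM in WT1 to WT4 and at 0.539, 0.0655, 34.3 and 10.8 FPKM in KO1 to KO4. Myh4, the heavy chain of type 2B fibres, was at 0.0184, 0.0337, 0.0292 and 0.692 FPKM in WT and at 0.309, 0.122, 23.9 and 2.34 FPKM in KO. Both genes were highest in KO3, second in KO4 and next in WT4, and WT4 stood apart from the other WT libraries. Myh2, the heavy chain of type 2A fibres, reached only 1.09 FPKM in KO3 and 0.982 FPKM in KO4, and no other library exceeded 0.107 FPKM. Myh7, the slow heavy chain, which the heart also uses, was at 0.00617, 0.609, 0.00176 and 0.0202 FPKM in WT and at 0.00922, 0, 0.0338 and 0.00724 FPKM in KO, so that the only library with a clear level was WT2.

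The makeup of the heavy chains was that of fast fibres wherever their sum was large. In KO3 Myh1 held 57.9% and Myh4 40.2% of the 59.3 FPKM of these 4 genes, Myh2 held 1.84% and Myh7 held 0.0569%. KO4 had a larger part of Myh1, with 76.4% Myh1, 16.6% Myh4, 6.95% Myh2 and 0.0512% Myh7 of 14.1 FPKM. WT4 was close to KO4 in this respect, with 77.8% Myh1, 18.8% Myh4, 2.91% Myh2 and 0.549% Myh7 of 3.68 FPKM. The other 5 libraries had a sum of 0.0526 to 0.876 FPKM, and in WT2 Myh7 held 76.7% of 0.795 FPKM. Myosin heavy chain genes share sequence, and 25.4% of the 50-base words of Myh1, 22.9% of Myh2 and 18.9% of Myh4 also occurred in another gene, so that the split between them is less certain than their sum. For Myh7 it was 15.6%, shared most with the cardiac gene Myh6.

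The light chains stabilise the lever arm of myosin. Mylpf, the fast regulatory light chain, was at 1.17, 0.727, 0.276 and 1.54 FPKM in WT1 to WT4 and at 1.48, 1.84, 43.5 and 4.52 FPKM in KO1 to KO4. Myl1, the fast essential light chain, was at 0.181, 0.298, 0.432 and 2.82 FPKM in WT and at 0.436, 0.567, 59.2 and 8.88 FPKM in KO. In both genes KO3 was the highest library, 9.63 times the next one for Mylpf and 6.66 times for Myl1. Of the 50-base words of Myl1 11.7% also occurred in another gene, most of them in Mylf-ps, so its level is less certain. Their slow counterparts Myl2 and Myl3, which also serve the ventricle of the heart, were highest in KO4 instead, at 0.744 and 1.75 FPKM, and were at 0.493 and 0.996 FPKM in KO3. Myl2 was below 1 FPKM in every library and was listed at 0 in WT2 and WT3. Mybpc2, the fast form of a myosin-binding protein that limits the reach of the motors, was at 0.275 to 0.484 FPKM in WT and at 0.399, 0.591, 10.2 and 0.865 FPKM in KO1 to KO4. Mybpc1, the slow form, was the highest slow gene in all libraries, at 7.57, 10.2, 15.0 and 10.5 FPKM in WT and 6.50, 10.4, 14.8 and 11.8 FPKM in KO, and its groups overlapped fully.

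On the thin filament Acta1 (ENSMUSG00000031972, chr8:123891769-123894751, minus strand), the skeletal alpha-actin, showed the highest level reached by any of the 41 genes. It was at 0.214, 0.544, 0.151 and 2.18 FPKM in WT1 to WT4 and at 0.525, 0.293, 142 and 10.2 FPKM in KO1 to KO4. In KO3 it was 13.9 times the next library, KO4, and made up 20.4% of the summed muscle level, against 0.262% to 2.54% in WT. Of its 50-base words 2.02% occurred in another gene. Troponin has 3 subunits, and Tnni2, Tnnt3 and Tnnc2 are the fast forms of the inhibitory, tropomyosin-binding and calcium-binding subunits. Tnni2 and Tnnt3 lie close to each other on the plus strand, at chr7:142441808-142444410 and chr7:142498836-142516009. Tnni2 was at 0.0757 to 0.891 FPKM in WT and at 0.423, 0.241, 14.5 and 1.28 FPKM in KO1 to KO4. Tnnt3 was at 0 to 1.05 FPKM in WT and at 0.943, 0.257, 34.3 and 2.99 FPKM in KO. Tnnc2 was at 0 to 0.457 FPKM in WT and at 0.226, 0.0598, 16.9 and 1.55 FPKM in KO. All of these fast subunits were more than 10 times higher in KO3 than in any other library. The slow subunit Tnnt1 was at 0.902 to 1.21 FPKM in WT and at 0.958 to 1.33 FPKM in KO, with KO3 the lowest KO library. Tnni1 was at 0.0438, 0.632, 0.495 and 0.657 FPKM in WT and at 0.262, 0.223, 0.123 and 0.214 FPKM in KO, so that here KO3 was again the lowest KO library. Tnnc1, the calcium-binding subunit of slow fibres and heart, lay between 0 and 0.539 FPKM in all libraries and was highest in KO1.

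The Z-disc anchors the thin filaments of neighbouring sarcomeres. Actn3, the alpha-actinin of fast fibres, was at 0.0906, 0.467, 0.077 and 0.717 FPKM in WT1 to WT4 and at 0.215, 0.125, 12.2 and 0.686 FPKM in KO1 to KO4. KO3 was 17.0 times the next library, WT4, and KO4 was within the WT range, which made Actn3 the only fast gene for which KO4 was not second. Myoz1, a fast Z-disc protein that binds calcineurin, was at 0.0597, 0, 0.215 and 0.603 FPKM in WT and at 0, 0, 11.8 and 1.75 FPKM in KO. Its slow relative Myoz2 did not exceed 0.220 FPKM in any library. Actn2, the alpha-actinin of all fibres and of the heart, was at 1.96 to 3.77 FPKM in WT and 2.66 to 3.87 FPKM in KO, with the highest value in KO4. Smpx, a small protein whose gene is also known for hearing loss in humans, was at 3.42 to 7.72 FPKM in WT and 4.35 to 6.73 FPKM in KO. Actn2 and Smpx were the 2 shared genes that were not highest in KO3.

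Des, the intermediate filament that links Z-discs, was at 1.39, 2.46, 1.66 and 3.05 FPKM in WT1 to WT4 and at 3.36, 3.36, 15.8 and 4.72 FPKM in KO1 to KO4. Every KO library was above every WT library, although the lowest KO value and the highest WT value lay close together. Myot, a protein of the Z-disc that binds alpha-actinin, was at 0.189 to 0.498 FPKM in WT and at 0.816, 0.313, 3.85 and 1.13 FPKM in KO. Tcap, the cap of titin at the Z-disc, was at 0.162, 1.95, 4.60 and 2.28 FPKM in WT and at 1.62, 2.09, 10.8 and 3.08 FPKM in KO, with WT3 above KO4. Nrap, which takes part in the assembly of myofibrils, was at 0.0427 to 0.250 FPKM in WT and reached 1.40 FPKM in KO3 and 1.01 FPKM in KO4. Xirp1, an actin-binding protein of the attachment sites of myofibrils, was almost level between KO3 and KO1, at 0.544 and 0.531 FPKM, and was at 0.174 to 0.278 FPKM in WT. Both genes were low throughout, and Xirp1 overlaps the annotated span of Cx3cr1 on the same strand, so that reads of the pair may not be cleanly separated.

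Giant proteins set the length of the sarcomere. Ttn, which encodes the elastic filament titin, was at 1.18, 1.58, 0.807 and 2.47 FPKM in WT1 to WT4 and at 1.85, 1.06, 12.6 and 5.75 FPKM in KO1 to KO4. Neb, the ruler of the thin filament, was at 1.33 to 3.19 FPKM in WT and at 1.42, 0.979, 10.6 and 3.63 FPKM in KO, and KO2 was the lowest of all libraries. At the M-band, which links the thick filaments, Myom1 was at 5.91, 5.20, 2.51 and 5.28 FPKM in WT and at 7.28, 5.65, 10.1 and 7.01 FPKM in KO. Myom1 was thus well above the fast genes in libraries with little muscle RNA, and KO3 exceeded the next library only 1.38 times. Myom2, which encodes the M-protein of the same band, behaved differently, with 0.0223 to 0.111 FPKM in WT and 0.0530, 0.0384, 2.76 and 0.166 FPKM in KO. KO3 was 16.6 times the next library for Myom2.

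The 5 calcium-handling genes, of which 2 are fast and 3 shared, were all highest in KO3. Atp2a1, the calcium pump SERCA1 of fast fibres, was at 0.234, 0.778, 0.299 and 3.19 FPKM in WT1 to WT4 and at 0.590, 0.341, 64.7 and 15.6 FPKM in KO1 to KO4. Casq1, the calcium-storing calsequestrin of fast fibres, was at 0.716 to 1.19 FPKM in WT and at 1.09, 1.18, 14.1 and 2.03 FPKM in KO. Cacna1s, the voltage sensor in the T-tubule, was at 0.0137 to 0.202 FPKM in WT and reached 1.89 FPKM in KO3 and 0.498 FPKM in KO4. These 3 genes followed the order KO3, KO4, WT4. Ryr1, the calcium release channel, was at 0.0356, 1.66, 0.0127 and 1.01 FPKM in WT and at 0.128, 0.0762, 4.03 and 2.25 FPKM in KO. It departed from that order in WT2, where the cardiac and neuronal channel gene Ryr2 was also at its highest, 31.0 FPKM. Trdn, the triadin that couples release channel and calsequestrin, was at 0.126, 0.178, 0.270 and 0.231 FPKM in WT and at 0.701, 0.748, 1.83 and 0.485 FPKM in KO. Trdn was alone in having KO1 and KO2 above both KO4 and all WT libraries.

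The metabolic genes supply and buffer the energy of contraction. Ckm, the creatine kinase of muscle, was at 0.0280, 0.134, 0.0150 and 0.882 FPKM in WT1 to WT4 and at 0.163, 0.0983, 29.0 and 3.96 FPKM in KO1 to KO4. Mb, the oxygen-binding myoglobin of oxidative fibres and heart, was at 0.0762, 0.203, 0.397 and 0.817 FPKM in WT and at 0.343, 0.874, 13.6 and 5.51 FPKM in KO. Ampd1, the AMP deaminase of muscle, was at 0.880 FPKM in KO3 and 0.125 FPKM in KO4 and did not exceed 0.0243 FPKM elsewhere. Pygm and Eno3, the muscle forms of glycogen phosphorylase and enolase, had a higher base than these 3 genes. Pygm was at 4.87 to 15.8 FPKM in WT and at 11.0, 9.71, 32.4 and 13.2 FPKM in KO, so that KO4 lay below WT4. Eno3 was at 2.57 to 7.09 FPKM in WT and at 2.31, 4.76, 32.2 and 10.2 FPKM in KO.

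The base level of genes also separated the list. Of the 41 genes 7 stayed under 1 FPKM in every library, and 5 of these 7 were slow genes. Conversely, the genes that were abundant in libraries with little muscle RNA were mostly shared or slow ones, such as Mybpc1, Pygm, Myom1, Smpx and Eno3. Over the fast genes the median level was 0.0997 to 0.839 FPKM in WT, 0.423 FPKM in KO1, 0.241 FPKM in KO2, 16.9 FPKM in KO3 and 2.03 FPKM in KO4. Over the slow genes it was 0.196 to 0.621 FPKM in WT and 0.164 to 0.482 FPKM in KO, with 0.377 FPKM in KO3.

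To contrast fibre types within a library, 8 isoform pairs were formed, in which a fast form and a slow form do the same job: the myosin heavy chains (Myh1, Myh2 and Myh4 summed, against Myh7), the regulatory and essential light chains, the 3 troponin subunits, the myozenins and the myosin-binding proteins C. The difference is log2(fast FPKM + 0.1) minus log2(slow FPKM + 0.1), averaged over the pairs. It was -0.30, -1.16, -1.35 and 1.10 in WT1 to WT4 and -0.01, -0.17, 5.29 and 2.13 in KO1 to KO4. A value near 0 thus held for KO1, KO2 and WT1, a lower value for WT2 and WT3, and a clear excess of fast forms for KO3, KO4 and WT4. A mean near 0 does not show a balanced makeup. The myosin-binding protein C pair alone gave -4.35 in WT1, -3.73 in KO1 and -3.92 in KO2. Both myozenins were at 0 FPKM in WT2 and KO1, which scores 0 and counts below as fast not above slow. The fast form was above the slow one in 4, 1, 3 and 6 of the 8 pairs in WT1 to WT4 and in 3, 4, 7 and 7 of the 8 pairs in KO1 to KO4. The exception in KO3 and in KO4 was the pair of myosin-binding proteins C, with Mybpc2 at 10.2 FPKM and Mybpc1 at 14.8 FPKM in KO3. The group means were -0.43 ± 1.11 in WT and 1.81 ± 2.55 in KO (SD, n = 4 each), a difference of 2.24 that was smaller than the SD of the KO libraries. Without KO3 the KO mean was 0.65 ± 1.28 (SD, n = 3) and the difference was 1.08.

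**Figure D2:**
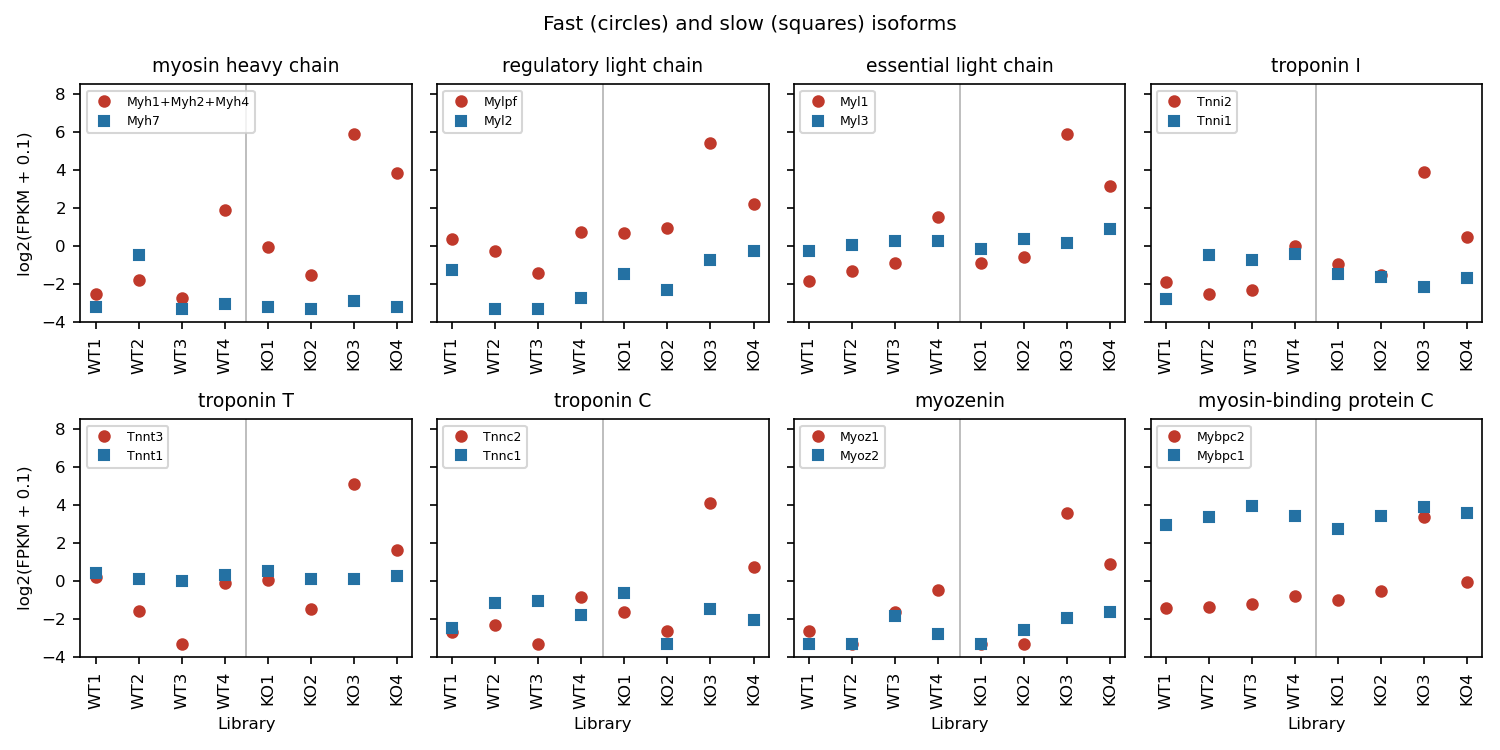
Fast (red circles) and slow (blue squares) members of 8 isoform pairs, as log2(FPKM + 0.1) on the y axis, in each of the 8 libraries on the x axis, 1 point per library, with a grey line between WT and KO. The circles lie above the squares in KO3 for every pair other than the myosin-binding proteins C, while the squares stay nearly level for Myl3, Tnnt1 and Mybpc1.

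Single pairs ranged widely. For the myosin heavy chains the difference reached 8.79 in KO3, 7.05 in KO4 and 4.97 in WT4, against -1.31 in WT2, where Myh7 was the higher one. For the essential light chains it was 5.76 in KO3, 2.28 in KO4 and 1.28 in WT4, and it was below 0 in the other 5 libraries. For the regulatory light chains the fast form exceeded the slow one in all 8 libraries, by 1.62 to 6.20. Troponin T gave 5.02 in KO3 and 1.40 in KO4 and was below 0 in the other 6 libraries. The myosin-binding proteins C gave -5.14 to -4.18 in WT and -3.73, -3.92, -0.53 and -3.62 in KO1 to KO4, so that the slow form was the higher one throughout.

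Upstream sequence was examined for letters that are known to bind muscle regulators, since MyoD and its relatives bind E-boxes of the form CANNTG, often CAGCTG, and MEF2 factors bind an AT-rich element. Promoter entries of RefSeq (build GRCm38.p6) were found for 30 of the 41 genes, as 35 start sites, and the 250 bases before each start were searched on both strands. The letters CAGCTG, which are also one form of the E-box, occurred in 18 of the 35 windows (51.4%), against 13.0% of all 32851 windows of the same length. They occurred in 5 of 9 fast windows, 5 of 11 slow windows and 8 of 15 shared windows. Any E-box was found in 88.6% of the muscle windows and 66.2% of all windows, and the MEF2 consensus in 11.4% and 2.92%. A match is a description of the letters and not a measured site, and start sites of 1 gene overlap. To show fast and slow genes side by side, the 160 bases before the start are printed for 2 fast genes with CAGCTG and 2 slow genes without it in the bases printed, 5′ to 3′ on the strand of the gene, with CAGCTG in capitals. Mylpf lies at chr7:127211448-127211607 on the plus strand and Myh4 at chr11:67237652-67237811 on the plus strand, before a RefSeq start that lies upstream of the start of the gene in the deposited coordinates. Myh7, at the upstream one of its start sites, lies at chr14:54994627-54994786 on the minus strand and Tnnc1 at chr14:31208152-31208311 on the plus strand.
Mylpf: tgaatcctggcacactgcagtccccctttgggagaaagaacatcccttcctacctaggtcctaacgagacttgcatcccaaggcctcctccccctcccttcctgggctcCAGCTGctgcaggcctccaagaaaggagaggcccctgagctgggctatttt
Myh4: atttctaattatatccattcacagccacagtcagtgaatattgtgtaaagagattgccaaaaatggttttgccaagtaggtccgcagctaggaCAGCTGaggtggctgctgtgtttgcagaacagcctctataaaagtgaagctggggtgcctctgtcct
Myh7: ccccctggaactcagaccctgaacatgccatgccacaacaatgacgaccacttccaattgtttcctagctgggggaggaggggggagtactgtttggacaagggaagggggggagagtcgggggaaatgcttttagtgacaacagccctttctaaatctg
Tnnc1: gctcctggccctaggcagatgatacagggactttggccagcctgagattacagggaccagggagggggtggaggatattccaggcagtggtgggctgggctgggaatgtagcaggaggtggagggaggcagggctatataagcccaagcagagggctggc

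These genes were picked for having or lacking the letters. Whether the letters relate to fibre type or to level was not tested. CAGCTG was found in 55.6% of fast windows and 45.5% of slow windows. The fast genes Myh1 and Tnnc2, at 34.3 and 16.9 FPKM in KO3, had none in the 250 bases searched, like the slow genes Myh7 and Tnnc1 at 0.0338 and 0.261 FPKM. The slow gene Mybpc1, at 14.8 FPKM in KO3 and 15.0 FPKM in WT3, had 1, as did the fast genes Mylpf and Myh4 at 43.5 and 23.9 FPKM in KO3. Some windows overlap annotated exons of either strand, so not every match lies outside transcribed sequence. Added up over exons, the overlap was 160 bases for the 160 bases before the Mybpc1 start and 0 bases for each sequence printed above.

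Whether the muscle genes differed between genotypes was asked with limma on log2(FPKM + 0.1) over all genes with a mean of at least 0.5 FPKM. Of the 41 genes 30 passed this filter, and 7 of the 30 passed it only through KO3, since 23 had a mean of at least 0.5 FPKM in the other libraries. At an unadjusted two-sided p under 0.05, the threshold of the study, 6 of the 30 were called higher in KO and 0 lower, against 4.61% of all 14990 tested genes called higher and 0.507% called lower. At an adjusted p under 0.05 limma called 0 of the 30 genes and 0% of all genes, whereas 767 genes had an unadjusted p under 0.05. Scaling the libraries by median ratios moved the calls over all genes from 691 higher and 76 lower to 402 and 363, quantile normalization moved them to 378 and 547, and 5 and 2 muscle genes were then called, all higher. The groups did not overlap for 2 of the 30, Des and Trdn, against 3.02% of all tested genes that were higher in every KO library. No count is read as a result about the list, since the choice of genes used this contrast.

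The genes called were Trdn, Des, Myot, Mylpf, Mb and Myom1. In Trdn the log2 fold change was 1.66 with a standard error of 0.43 (limma, unadjusted p = 0.00422, adjusted p = 0.947). Des gave 1.36 with a standard error of 0.50 (unadjusted p = 0.0252) and Mb gave 2.60 with a standard error of 1.06 (unadjusted p = 0.0373). For Mylpf, Myot and Myom1 the log2 fold changes were 2.48, 1.64 and 0.69 with unadjusted p-values of 0.0371, 0.0328 and 0.0455. The largest fold changes belonged to genes that were not called and whose KO libraries were spread widely. Myh1 gave 3.04 with a standard error of 1.76 (unadjusted p = 0.119), Myh4 gave 2.92 with a standard error of 1.40 (unadjusted p = 0.0686) and Acta1 gave 2.90 with a standard error of 1.76 (unadjusted p = 0.135). Without KO3 the calls were Des and Mylpf among 23 tested muscle genes, beside 347 of 14981 genes in all, and Trdn and Myot fell below the filter, which they had passed only through KO3. Without KO2, the KO library with the lowest fast sum, 14 of 30 muscle genes were called, all higher, beside 323 of 14976 genes called higher in all. Leaving out a KO library in which these genes are low raises their KO mean by construction, so this count supports nothing. Of the 14, Trdn, Myot, Tnnc2 and Tnni2 had means of 0.391, 0.489, 0.349 and 0.454 FPKM over the libraries other than KO3, under the filter.

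On the log2 scale 37 of the 41 genes had a difference above 0, and 36 without KO3. A difference above 1 was found for 26 genes with all libraries and for 15 without KO3. The median over the list was 1.36, and 0.55 without KO3, beside a median of 0.10 over all tested genes. By fibre type the median was 2.41 for fast, 1.10 for shared and 0.01 for slow genes, and without KO3 it was 1.10, 0.51 and -0.05. Fast and shared genes thus kept a positive median when KO3 was left out, with KO4 as the remaining high library. The largest shifts between both calculations were in Acta1, from 2.90 to 1.22, and in Ckm, from 2.71 to 1.30, while Neb turned from 0.34 to -0.30. In Trdn the difference was 1.31 without KO3, in Mb 1.77 and in Des 0.85. Myl2 was the slow gene with the largest difference, 1.46, on values of at most 0.744 FPKM, and Myh7 and Tnni1 had the lowest, -0.64 and -0.63.

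**Figure D3:**
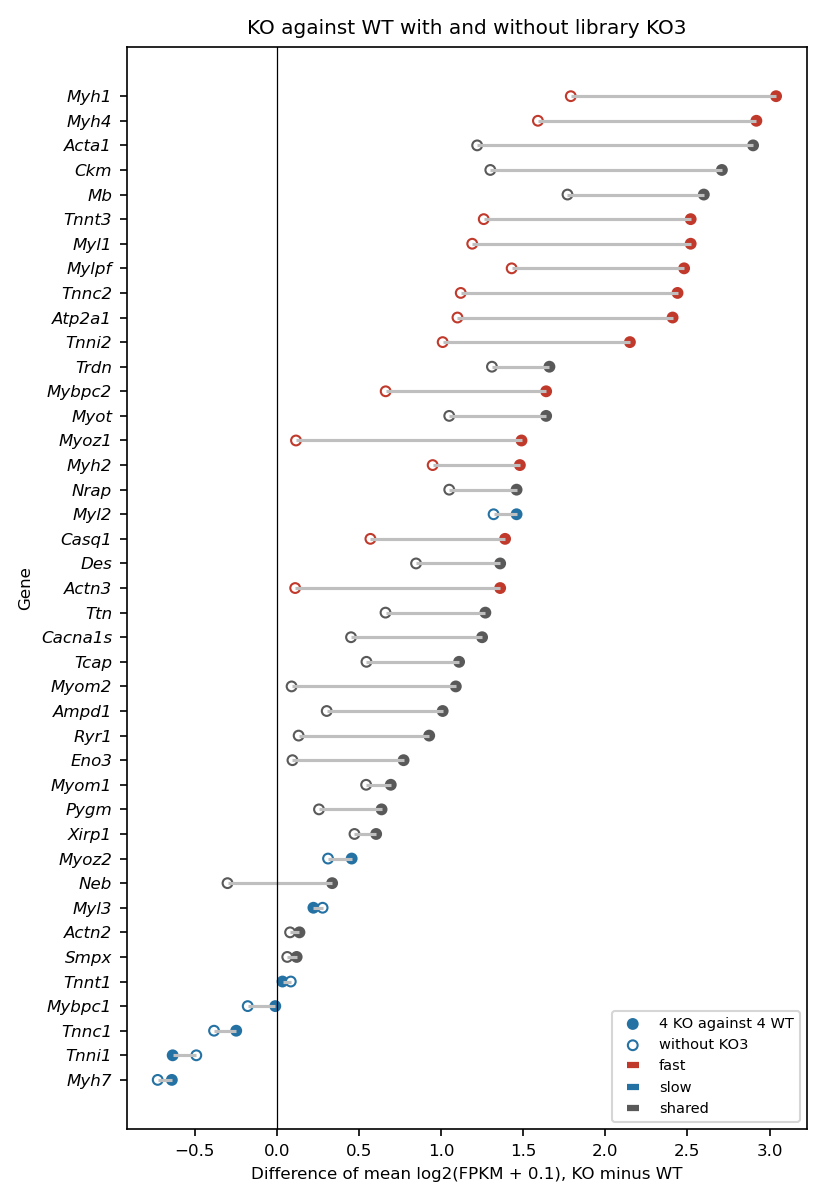
Difference between the mean log2(FPKM + 0.1) of KO and WT libraries (x axis) for each of the 41 genes (y axis, ordered by the difference), with all 8 libraries (filled circles) and without KO3 (open circles), joined by a grey line, in red for fast, blue for slow and grey for shared genes. Open circles lie left of filled ones for all fast and shared genes, and the median moves from 1.36 to 0.55.

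Other genes of adult muscle fibres, listed by symbol, were followed in the same libraries. Of 40 listed genes 39 were in the table, 34 of these 39 were highest in KO3, and 27 passed the filter. As above, no share of all genes highest in KO3 stands beside this count. Only Pdlim3, an actin-associated protein of the Z-disc, was called, at 0.474 to 0.991 FPKM in WT and 1.94, 0.948, 2.66 and 1.57 FPKM in KO, with a log2 fold change of 0.97 and a standard error of 0.37 (limma, unadjusted p = 0.0276, adjusted p = 0.947). Thus 1 of 27 genes was called higher and 0 lower, beside 4.61% and 0.507% of all tested genes, and 4 of the 27, Apobec2, Klhl41, Hrc and Mylk2, passed the filter only through KO3. The median difference was 0.72 over the 27 genes and 0.32 over the 23 genes tested without KO3. Without KO3 Pdlim3 was no longer called, and Tmod4, which caps thin filaments and is named here after its values were seen, was called lower. The genes with the highest levels of this list did not follow the muscle pattern as sharply. Pvalb, which encodes the calcium buffer parvalbumin of fast fibres and also of neurons, was at 46.7 to 202 FPKM in WT and 82.4 to 209 FPKM in KO. Cox7a1, a subunit of cytochrome oxidase in muscle, was at 8.79 to 16.0 FPKM in WT and 8.79 to 19.0 FPKM in KO. Slc2a4, the insulin-dependent glucose transporter, was at 2.47 to 4.02 FPKM in WT and at 3.30, 6.27, 9.18 and 4.92 FPKM in KO, and Art1 was at 0.846 to 4.24 FPKM in WT and 2.63 to 6.56 FPKM in KO.

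Genes of other stages and types of muscle were low or did not share the KO3 peak. Of 7 developmental and craniofacial myosins 5 stayed under 1 FPKM everywhere. Myl4, the atrial and embryonic light chain, was at 0.612 to 1.11 FPKM in WT and at 2.37, 4.20, 2.62 and 2.05 FPKM in KO, a log2 fold change of 1.46 (limma, unadjusted p = 0.000918, adjusted p = 0.922) with KO2 highest. Of the myogenic regulators and satellite cell genes 7 of 8 stayed under 1 FPKM, but Myf6, the regulator of mature fibres, was at 0.607 FPKM in KO3 and 0.281 FPKM in KO4 and at 0 to 0.0736 FPKM elsewhere. Myod1 was at 0.480 FPKM in KO3 and did not exceed 0.0250 FPKM elsewhere. Of 10 genes of the neuromuscular junction 6 were tested and 0 of these were called, beside 4.61% of all tested genes called higher and 0.507% lower, and none of the 10 was highest in KO3, with a summed level of 24.6 to 33.7 FPKM in WT and 29.1 to 38.8 FPKM in KO. Of these Lrp4 and Colq were the most abundant, with Lrp4 at 9.70 to 21.8 FPKM in WT and 18.2 to 25.2 FPKM in KO.

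Cardiac and smooth muscle markers were not highest in KO3 either. Over 9 cardiac genes the sum was 8.42 to 34.4 FPKM in WT and 12.9 to 35.9 FPKM in KO, most of it Ryr2, and 0 of 9 were highest in KO3. Tnnt2, the cardiac troponin T, was called higher, at 0.322 to 0.512 FPKM in WT and at 1.21, 1.85, 1.03 and 0.690 FPKM in KO (log2 fold change 1.23, limma, unadjusted p = 0.00573, adjusted p = 0.947). All 8 smooth muscle genes were tested and 0 were called, beside 4.61% of all tested genes called higher and 0.507% lower, and 0 of the 8 were highest in KO3, with a sum of 49.1 to 72.1 FPKM in WT and 122, 53.2, 83.3 and 79.3 FPKM in KO1 to KO4. Acta2, the smooth muscle actin, was highest in KO1 at 44.1 FPKM, and was at 28.5 FPKM in KO3.

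Markers of other tissues around the ear varied between the same libraries. The 7 pituitary genes summed to 1.75, 61.0, 63.6 and 1700 FPKM in WT1 to WT4 and to 321, 76.4, 756 and 62.8 FPKM in KO1 to KO4, so that WT4 and KO3 were the highest while KO4 was close to WT2 and WT3. The leading gene was Gh, the growth hormone gene, at 1280 FPKM in WT4 and 604 FPKM in KO3, while Pomc was highest in KO3 at 65.9 FPKM. The 7 white or general adipocyte genes summed to 10.1, 12.2, 0.123 and 26.1 FPKM in WT and to 25.1, 46.8, 52.8 and 6.86 FPKM in KO, with 5 of the 7 highest in KO3 and Adipoq listed at 0 in WT3. Brown adipocyte genes summed to 18.2 to 37.7 FPKM in WT and 30.6 to 52.2 FPKM in KO, and Ucp1, their defining gene, was highest in KO2 at 10.6 FPKM, with 5.43 FPKM in KO3 and 0.0798 FPKM in KO4. Bone genes summed to 592, 241, 40.6 and 234 FPKM in WT1 to WT4 and to 467, 480, 420 and 257 FPKM in KO1 to KO4. The neutrophil lineage genes summed to 9390, 653, 51.3 and 889 FPKM in WT and to 3310, 2340, 5000 and 1640 FPKM in KO. The 15 cochlear genes, by contrast, summed to 2100 FPKM in KO3 and 2190 FPKM in KO4, both within the WT range. Most of this was Coch, at 1720 FPKM in KO3 and 1690 FPKM in KO4. Of the 15 genes 1 was called lower and 0 higher, beside 0.507% and 4.61% of all tested genes. The part of the dissected tissue in the muscle levels was not tested.

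**Figure D4:**
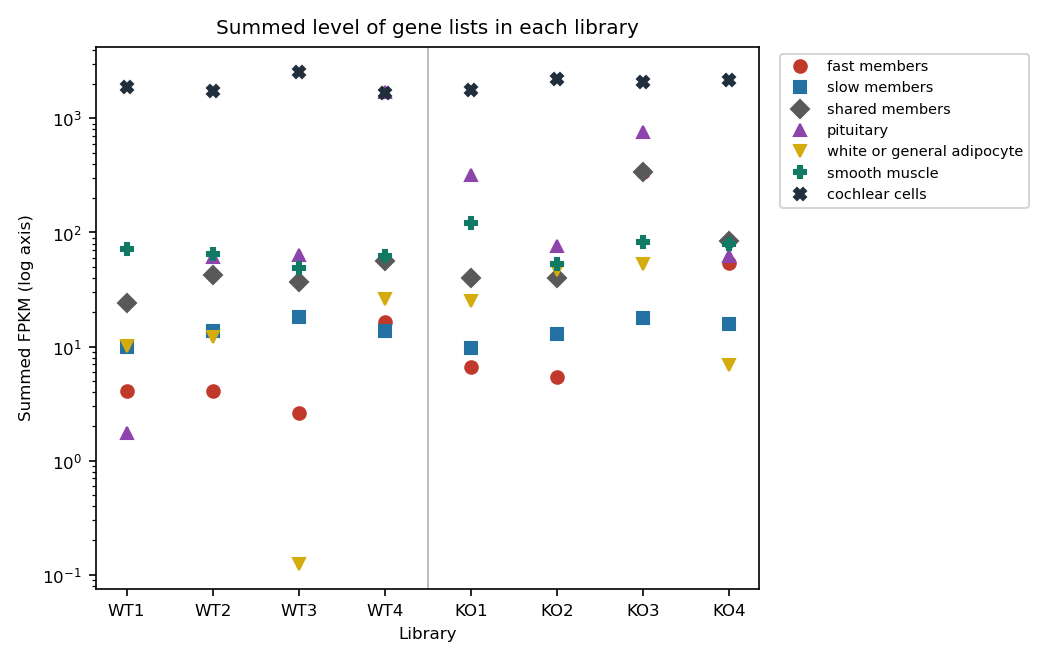
Summed FPKM (y axis, log scale) of the fast, slow and shared muscle genes and of 4 other marker lists in each of the 8 libraries (x axis), 1 point per list and library, with a grey line between WT and KO. Fast and shared genes peak in KO3, at 341 and 336 FPKM so that their points coincide, slow genes stay between 9.69 and 18.0 FPKM, and the pituitary list peaks in WT4.

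The genes outside all muscle lists whose levels were most like the mean log2 level of the muscle genes were named by Pearson's r over the 8 libraries, among genes with a mean of at least 1 FPKM. Cx3cr1, Mylk4 and Xirp2 led, with r of 0.973, 0.965 and 0.962, followed by Ccdc134, Lrch1, Mfsd13a, Sfxn2, Sertad1, Slc39a11 and Upp1, the last with r of 0.907. Since they were picked as the highest of many genes and KO3 is a far point, r carries no test. Over the 6 libraries other than KO3 and KO4, which lie farthest out, r was 0.702 for Cx3cr1, 0.782 for Mylk4 and 0.768 for Xirp2, and -0.187 for Upp1. Mylk4 was at 0.102 to 0.413 FPKM in WT and at 0.238, 0.207, 7.89 and 0.760 FPKM in KO, and Xirp2, a relative of Xirp1, was at 0.339 to 1.11 FPKM in WT and at 0.503, 0.452, 4.34 and 1.32 FPKM in KO. Cx3cr1, the fractalkine receptor of macrophages, was at 1.03 to 1.89 FPKM in WT and at 1.28, 1.33, 6.36 and 2.97 FPKM in KO, and it is the gene whose annotated span overlaps Xirp1. The remaining genes differed in their range. Slc39a11 was at 2.21 to 5.02 FPKM in WT and at 4.08, 3.76, 8.39 and 6.29 FPKM in KO, Sfxn2 was at 1.46 to 2.15 FPKM in WT and at 4.06 FPKM in KO3, and Lrch1 was at 10.9 to 13.1 FPKM in WT and 11.5 to 15.6 FPKM in KO.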

How the data were processed

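Strand-specific libraries were made from total cochlear RNA after removal of ribosomal RNA, and paired-end reads were mapped with Hisat2 by the authors, who deposited FPKM per gene and library. The tool and annotation behind the FPKM are not given in the sources used here. The submitters' processing notes name mm9, whereas the coordinates of 36 of the 41 genes equal those of GENCODE mouse annotation on GRCm38. The number of unused per-sample columns was 0. FPKM carry no counts, and depth was estimated from the step size of low values in 3907 genes with 1 transcript (56.2% to 62.3% of such values within 0.1 of a whole fragment).

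Genes with a mean of at least 0.5 FPKM were fitted with limma 3.58.1 in R 4.3.3 on log2(FPKM + 0.1), by a genotype term with a mean-variance trend, and p-values were adjusted by Benjamini-Hochberg over all genes tested. The fit was tried on simulated data, but the outcome is not reported here and no result rests on it. Because fitted values rest on a pseudocount, changes of low genes are understated. Alternatives were the 6 libraries numbered 1 to 3, a pseudocount of 1, other filters and scalings, no trend, a replicate block, and omission of each library in turn.

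The 41 genes and all lists were chosen with earlier results of these data known. Genes were named from a rule: all 41, the 4 most abundant genes of each other list, any called gene of the list of other fibre genes, and the 10 genes most like the muscle mean.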

Additional observations from a re-analysis of the deposited data

Results flagged for a closer look

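For 6 genes 1 library of a group stood apart, measured on log2(FPKM + 0.1) as the gap to the nearest library over the range of the group, and compared with Dixon's 95% critical value for 4 libraries. Among WT libraries WT4 was high for Myh4 (0.936) and Myh1 (0.85), at 0.692 and 2.86 FPKM. WT2 was high for Myh7 (0.914), at 0.609 FPKM. WT1 was low for Tnni1 (0.855), at 0.0438 FPKM, and WT3 was low for Myom1 (0.849), at 2.51 FPKM. Among KO libraries KO1 was low for Smpx (0.89), at 4.35 FPKM. Chance gives about 1 such case in 20 groups, and each of the 41 genes was examined in 2 groups. KO3 was not picked out by this measure for the fast genes, as KO4 lay between it and the others.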

How the results depend on the processing

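Of the muscle genes 6 of 30 tested were called with all 8 libraries (767 of 14990 over all genes). The count was 2 of 31 with the 6 libraries numbered 1 to 3 (674 of 14956). It was 3 of 30 with a pseudocount of 1 (812 of 14990) and 2 of 30 with quantile normalization (925 of 14990). All calls of these settings were among the 6. Without a filter 9 of 41 were called (976 of 18601), with Myl2, Nrap and Xirp1 added to the 6. With single libraries left out, 1 to 14 were called: 3 without WT1 (2922 over all genes), 2 without WT2 (577), 1 without WT3 (596), 7 without WT4 (687), 7 without KO1 (608), 14 without KO2 (377), 2 of 23 tested without KO3 (347) and 2 without KO4 (870). Myh1 and Myh4 were added without WT4, and Mybpc2 and Myh4 without KO1. With single libraries left out, the log2 ratio of the summed level ran from 0.57 (without KO3) to 2.33, around 2.0 with all libraries, and the difference between fast and slow isoforms from 1.08 (without KO3) to 2.90, around 2.24. With the 6 libraries they were 2.38 and 2.64. The 6 called muscle genes and Pdlim3 kept their direction in every setting in which they were recomputed. Single genes of the other lists were not followed in this way. Among values that were not called, Neb turned to -0.30 without KO3, and Actn2, Smpx, Myl3, Mybpc1 and Tnnt1, all near 0, changed sign under a scaling or with 1 library left out. Of the recomputed fold changes of single muscle genes 469 moved by less than the spread between libraries and 2 by more, Trdn to 0.65 with a pseudocount of 1 and Tnnt1 to -0.25 with quantile normalization. This spread is the SD within groups, which KO3 widens for many of these genes, so the count is no measure of stability. Without KO3 Acta1 moved from 2.90 to 1.22 and Neb from 0.34 to -0.30, and both counted as less than the spread. Pdlim3 kept its call under 9 alternatives and lost it under 7.

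Of the other fibre genes 1 of 27 tested was called in the fit reported (767 of 14990 over all genes). The count was 0 of 27 with the 6 libraries (674 of 14956), 2 of 27 with a pseudocount of 1 (812 of 14990) and 4 of 39 without a filter (976 of 18601). Quantile normalization gave 0 of 27 (925 of 14990), the fit without the trend 3 of 27 (766 of 14990) and the replicate block 5 of 27 (838 of 14990). With single libraries left out, 0 to 5 were called: 2 without WT1 (2922 over all genes), 0 without WT3 (596), 2 without WT4 (687), 5 without KO1 (608) and 3 without KO2 (377). Over all genes 767 were called, and 347 to 2922 with single libraries left out, the lowest without KO3 (377 without KO2) and the highest without WT1. Scaling moved the split of higher and lower calls from 691 and 76 to 402 and 363 (median-ratio) or 378 and 547 (quantile), and the median of all genes from 0.10 to 0.00 or -0.04. Deviations of same-numbered libraries correlated at 0.419, -0.24, -0.17 and 0.21. These mixed signs do not show a pairing by number, but they cannot exclude one. With the replicate block 4 of the muscle genes and 838 of all genes were called.

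Causes of these changes were not tested. Genes under 1 FPKM rest on few fragments, and their levels and ratios are the least certain ones here.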
